A study of Rattus norvegicus with 6 samples.

Results

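The genes of glucose uptake, glycolysis and lactate transport were examined in RNA-seq data from crushed and intact rat sciatic nerves. The members were 10 genes picked by symbol, Slc2a1, Hk1, Hk2, Pfkp, Pfkfb3, Pgk1, Ldha, Pdk1, Slc16a1 and Slc16a3, and each of them matched 1 row among the 30957 Ensembl genes of the deposited table. The samples were 3 nerves labelled injured and 3 labelled normal, all from Sprague Dawley rats. The study's methods describe adult male rats, a crush of the sciatic nerve, and collection of the proximal stump and of the uncrushed nerve of the other side at 4 days postinjury, and the groups are called crushed and intact here. An intact nerve therefore belonged to an injured animal, and no nerve of an uninjured rat was compared. The labels give no time point or age, and they do not say whether the samples of a group came from separate rats or which nerves shared a rat, so the p-values measure only the spread between these samples, which may be technical. Where 3 values are given for a group they stand in the order of nerves 1, 2 and 3.

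Glycolysis turns glucose into pyruvate in the cytosol. Glucose enters through facilitative transporters such as GLUT1, is trapped by hexokinase, and is committed to the pathway by phosphofructokinase. When pyruvate is not passed on to the mitochondrion, lactate dehydrogenase reduces it to lactate, and monocarboxylate transporters (MCTs) carry lactate with a proton across the membrane. Pyruvate dehydrogenase kinases close the mitochondrial route by phosphorylating pyruvate dehydrogenase. In peripheral nerve, glia are known to release lactate that axons can use as fuel, and Schwann cells are known to raise glycolysis after injury. Many genes of the pathway are textbook targets of the transcription factor HIF-1, which is stabilized when oxygen is low.

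None of the 10 genes met the limits the study applied, an absolute log2 fold change above 1 with a p under 0.001, read here as unadjusted (percent of all 12393 genes tested that met them: 0.282). With edgeR's quasi-likelihood test and Benjamini-Hochberg adjustment over all genes tested, 0 of the 10 had an adjusted p under 0.05 in either direction, against 3.12% of all genes tested, and 3 of the 10 had an unadjusted p under 0.05, against 16.2%. Of these 3, Slc16a1 and Slc16a3 were on the higher side (6.71% of all genes tested) and Pfkp on the lower side (9.50%). DESeq2 and edgeR's exact test each called 1 of the 10, Slc16a1, where they called 4.13% and 5.06% of all genes tested. The other fits called 0 of the 10, namely RLE scaling (3.00% of all genes), no expression filter (2.12%), limma on log2(FPKM + 0.1) (1.95%) and a replicate block (2.42%). The log2 fold changes of crushed against intact nerves lay between -0.15 for Pfkp and 0.20 for Slc16a1, with a median of 0.037 against -0.0017 for all genes tested, and 6 of them were positive. The 95% interval of each gene lay within 1.5-fold in either direction, and that of Pfkfb3 was the widest. The values of the 3 crushed nerves did not overlap those of the 3 intact nerves in 5 of the 10 genes, against 23.0% of all genes tested.

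**Figure D1:**
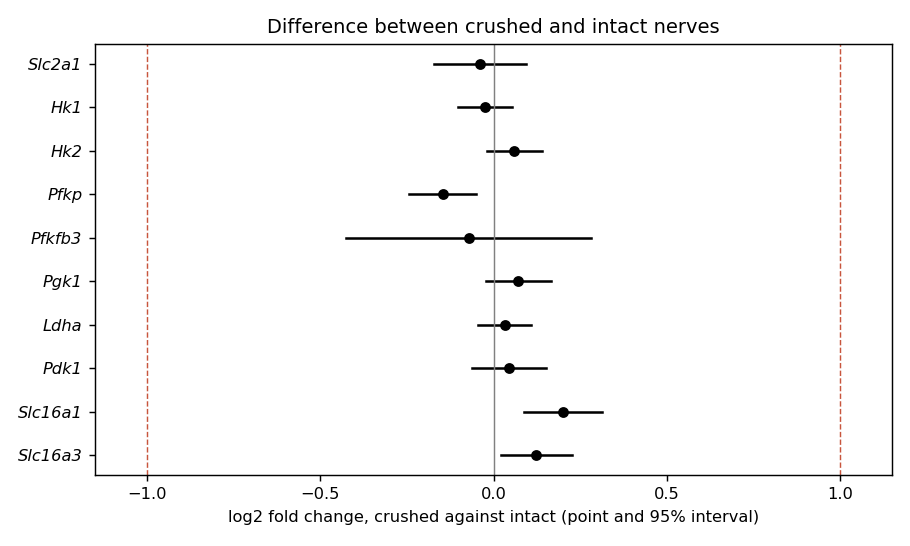
The log2 fold change of each gene between crushed and intact nerves (horizontal axis, point) is plotted with its 95% interval from edgeR's quasi-likelihood test (line, n = 3 nerves in each group), and dashed lines mark the study's limit of 1 in each direction. All 10 intervals lie inside the dashed lines, from Pfkp at -0.15 to Slc16a1 at 0.20, and that of Pfkfb3 is the widest.

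The 6 libraries held between 24844371 and 27139360 counts on genes, and a floor of 3 counts corresponded to between 0.110 and 0.121 normalized CPM (CPM, library-scaled counts after TMM). Markers of the labelled tissue were largely missing. Of 8 Schwann cell markers in the table, 5 had at most 3 counts in every nerve, with Gap43 and Cdh19 at 0 throughout and Sox10 at 1 count in a single nerve. Of 7 myelin markers, 4 had at most 3 counts in every nerve, Mbp among them, while Pmp22 had 821 to 968 and Prx 590 to 690 counts. Of 10 macrophage markers, 5 had at most 3 counts in every nerve, with Ptprc, Cd163 and Adgre1 at 0, while Cd68 (29 to 52 counts), Cd14 (49 to 84) and Csf1r (18 to 29) were detected in all nerves. By contrast, 6 proliferation markers summed to between 3102 and 3323 normalized CPM in intact and between 2980 and 3104 in crushed nerves, with overlap. Summed levels were lower in every crushed nerve for the Schwann cell list (7.13 to 8.72 CPM intact, 5.35 to 5.97 crushed), the myelin list (60.3 to 63.7 and 58.3 to 58.9) and the fibroblast list (186 to 199 and 163 to 182), whereas the macrophage (3.94 to 5.61 and 4.43 to 6.30) and endothelial lists (4.66 to 5.53 and 3.77 to 5.08) overlapped between groups. Of all genes tested, 1.65% were called lower at an adjusted p under 0.05. In the Schwann cell list 1 of the 2 markers tested was called lower, the neuregulin receptor gene Erbb3, which fell by 0.59 on the log2 scale (5.18 to 3.44 CPM, edgeR quasi-likelihood adjusted p = 0.0222). Of 7 fibroblast markers in the table, 3 had at most 3 counts in every nerve, namely Col1a2, Dcn and Lum, all at 0 throughout. In the fibroblast list 2 of 4 tested were called lower, the collagen genes Col1a1 (log2 fold change -0.69, adjusted p = 0.000662) and Col3a1 (-1.76, adjusted p = 0.0268, edgeR's quasi-likelihood test), whereas Pdgfra had a positive value of 0.19 (adjusted p = 0.166). Col3a1 was low, with 3 to 23 counts per nerve. In the myelin list 0 of 3 were called in either direction, against 3.12% of all genes tested. The log2 fold changes were 0.032 for Pmp22, -0.20 for Prx and -0.59 for Egr2, which had 21 to 69 counts per nerve. The markers singled out here were chosen after their values were seen. Neutrophil, skeletal muscle and adipocyte lists each summed to less than 1 CPM in every nerve. The part of cell composition in the values of the glycolysis genes was not tested, and in bulk tissue fewer cells of a type and less RNA per cell cannot be told apart.

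Per unit of gene length, the 10 genes spanned a 496-fold range. In FPKM (fragments scaled by gene length and library size, as computed by the authors), Ldha was the highest with a mean of 860 over the 6 nerves, followed by Pgk1 with 765, and both stood at percentile 99.6 of the genes tested. The next level, that of Slc2a1 with 122 FPKM, was 6.28-fold under Pgk1. Hk1 with 103, Slc16a1 with 80.6, Hk2 with 75.4, Pdk1 with 51.9, Slc16a3 with 47.9 and Pfkp with 42.4 FPKM lay between percentiles 81.6 and 93.7. Pfkfb3 stood apart at the low end with 1.73 FPKM, at percentile 14.4, while the median gene tested had 12.8 FPKM. The FPKM ranges over the 6 nerves were separate for 6 of the 9 neighbouring pairs. Slc16a1 and Hk2, Pdk1 and Slc16a3, and Slc16a3 and Pfkp did not differ beyond their spread. Within the crushed nerves alone, Slc16a1 lay above Hk2 and Slc16a3 above Pfkp without overlap, and within the intact nerves alone these pairs overlapped. The ranges of Pdk1 and Slc16a3 overlapped among the crushed nerves and not among the intact ones. Together the 10 genes took 0.412, 0.428 and 0.419% of the counts in the intact nerves, against 0.441, 0.441 and 0.431% in the crushed ones. The means were 0.420 ± 0.00805% and 0.438 ± 0.00606% (SD, n = 3 each). The groups did not overlap on raw library totals, but they did in summed normalized CPM, a scale added after the data were seen, where intact nerve 2 with 4306 lay above crushed nerve 3 with 4281.

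**Figure D2:**
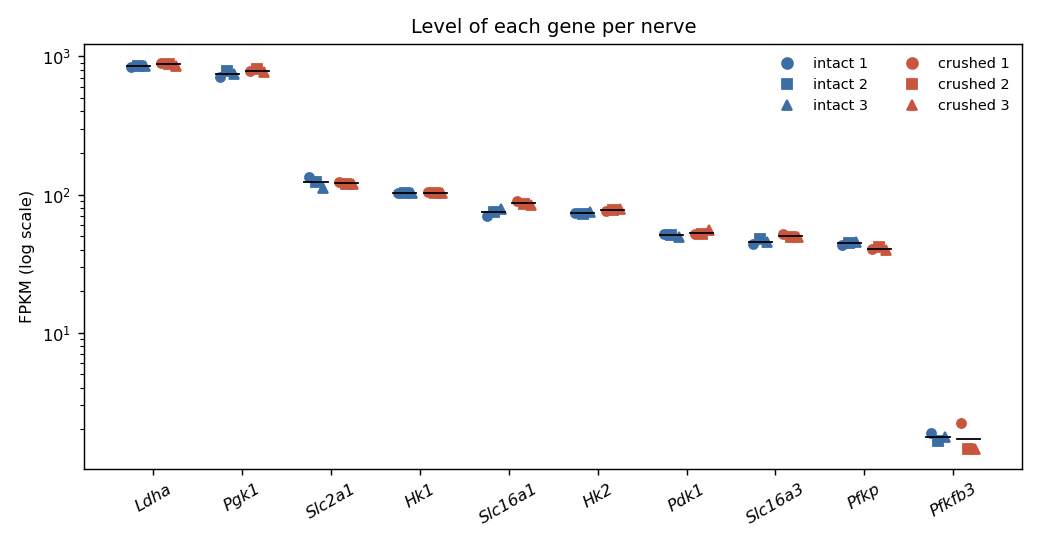
FPKM of the 10 genes in each nerve is plotted on a log axis, ordered by the mean over all nerves, with blue symbols for intact and red symbols for crushed nerves, the symbol shape giving the nerve number and short lines the group means. Ldha and Pgk1 lie between 703 and 890 FPKM, 7 genes lie between 39.5 and 134 FPKM, and Pfkfb3 lies between 1.43 and 2.22 FPKM.

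Because many of these genes are known HIF-1 targets, their promoters were searched for the core of the hypoxia response element, written as ACGTG or GCGTG on either strand, in the RefSeq windows from 250 bases before to 50 bases after the gene start (GRCr8 assembly). Windows were given for 9 of the 10 genes, 2 of them for Hk1, and none for Pgk1. At least 1 match was present in 7 of the 10 windows, against 41.6% of all 33469 windows, and the genes without one were Hk2 and Slc16a3. The palindrome CACGTG, which is also the E-box bound by MYC, USF and related factors, counts as a match on both strands, and the Ldha, Slc16a1 and Pfkfb3 windows each hold it. The matches marked below for Ldha and Slc16a1 are part of this palindrome, so they cannot be told from an E-box. Both windows also hold ACGTG outside the palindrome, beginning at -73 in Ldha (opposite strand) and at 5 in Slc16a1. A match is a run of letters and not evidence of binding. The 30-base stretches below are shown because they place the motif in the genes at the entry of glucose, the formation of lactate, its export and the gate to the mitochondrion, with the matched bases in capitals and the strand of the gene read 5′ to 3′.
Slc2a1, GRCr8 chr5:138002459-138002488, plus strand, match beginning at -51: gtcccgccccggACGTGgtcctcaggcccc
Ldha, GRCr8 chr1:106507994-106508023, plus strand, match beginning at -86: agcccagcctacACGTGggttcccgcacgt
Slc16a1, GRCr8 chr2:194812433-194812462, plus strand, match beginning at -215: cagcgcctagtcACGTGgcgggaagggggg
Pdk1, GRCr8 chr3:77113371-77113400, plus strand, match beginning at -131: ccgctcacatggGCGTGtcttcagtaaggg
Positions count bases from the gene start, with negative numbers before it. Of the 7 genes with a match in a window, Slc16a1 (higher) and Pfkp (lower) had an unadjusted p under 0.05 and the others did not. Of the 2 genes without a match, Slc16a3 did and Hk2 did not. The share of all genes tested was 16.2%.

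The lactate and pyruvate transporters showed the largest positive differences. Slc16a1, which encodes MCT1, the widely expressed carrier that moves lactate in either direction, lies on chromosome 2 (Rnor_6.0 chr2:207108552-207128554). It had 175, 188 and 197 normalized CPM in the intact nerves, against 223, 211 and 208 in the crushed ones. Every crushed nerve lay above every intact nerve, and the gap between the highest intact and the lowest crushed nerve was smaller than the range within the intact group. The means were 187 ± 11.3 and 214 ± 7.94 CPM (SD, n = 3 each), a log2 fold change of 0.20 (SE, the standard error, 0.0510, 95% interval 6.23% to 24.2% higher, edgeR quasi-likelihood adjusted p = 0.0675). The call depended on the tool and on 1 nerve: the adjusted p was 0.0178 with DESeq2, 0.0292 with edgeR's exact test and 0.0396 without intact nerve 3, the intact nerve with the highest level, and it ranged from 0.0178 to 0.267 over 12 alternatives. Slc16a3, which encodes MCT4, the low-affinity carrier typical of cells that export lactate, lies at chr10:110138586-110148358. Its levels were 95.7, 102.4 and 96.9 CPM in the intact nerves, against 111, 106 and 105 CPM in the crushed ones, again without overlap, with group means of 98.4 ± 3.58 and 107 ± 3.52 CPM (SD, n = 3 each). The log2 fold change of Slc16a3 was 0.12 (SE 0.0466, 95% interval 1.42% to 16.98% higher, edgeR quasi-likelihood adjusted p = 0.220). In both transporters crushed nerve 1 was the highest of all nerves. Of all genes tested, 10.8% had every crushed nerve above every intact nerve.

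**Figure D3:**
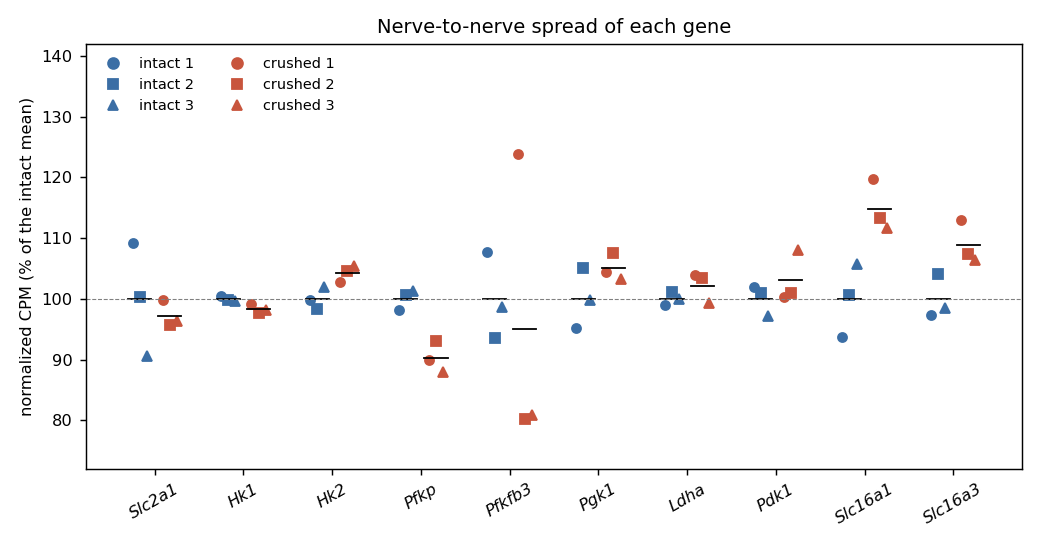
Normalized CPM of each gene in each nerve is plotted as a percentage of the mean of the 3 intact nerves, with blue symbols for intact and red symbols for crushed nerves, the symbol shape giving the nerve number and short lines the group means. The groups are separate for Hk1, Hk2, Pfkp, Slc16a1 and Slc16a3 and overlap for the other 5 genes, and for Pfkfb3 crushed nerve 1 lies far above crushed nerves 2 and 3.

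Pfkp, the platelet-type subunit of phosphofructokinase 1, was the gene with the largest negative difference. It lies at chr17:68511064-68559471 and had 98.6, 101 and 102 normalized CPM in the intact nerves, against 90.3, 93.4 and 88.3 in the crushed ones. The crushed nerves all lay below the intact ones, as in 12.2% of all genes tested. Its group means were 100.4 ± 1.59 and 90.7 ± 2.60 CPM (SD, n = 3 each), a log2 fold change of -0.15 (SE 0.0434, 95% interval -15.5% to -3.52%, edgeR quasi-likelihood adjusted p = 0.110), and over the 12 alternatives the adjusted p ranged from 0.0823 to 0.324. Pfkfb3, at chr17:70684134-70713726, encodes the bifunctional enzyme that makes fructose 2,6-bisphosphate, the main allosteric activator of phosphofructokinase 1. It had 253, 229 and 227 counts in the intact nerves, against 314, 202 and 188 counts in the crushed ones. Crushed nerve 1 held the highest level of all 6 nerves and crushed nerves 2 and 3 the lowest, with a coefficient of variation of 26.4% among the crushed nerves against 7.20% among the intact ones. The log2 fold change of -0.071 (SE 0.160, 95% interval -25.5% to 21.6%) was within the spread between nerves. Without crushed nerve 1 it was -0.31, and without crushed nerve 2 or 3 it was positive (0.039 and 0.030), so that no direction can be given for Pfkfb3.

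At the first steps of the pathway the values of the groups were close together. Slc2a1, which encodes the glucose transporter GLUT1, lies at chr5:138154673-138182897 and had 377, 346 and 313 normalized CPM in the intact nerves, against 345, 330.2 and 333 in the crushed ones. The intact nerves spanned the whole range of the crushed ones, and the log2 fold change was -0.040 (SE 0.0601, 95% interval -11.3% to 6.61%). Its sign turned without intact nerve 1, the highest of the 6, where the value was 0.032. Hk1, the hexokinase found in most tissues, lies at chr20:31912262-31956649. Its intact nerves had 279.8, 278 and 278 CPM and its crushed nerves 276, 272 and 274 CPM. The groups did not overlap on this scale, but the log2 fold change was -0.025 (SE 0.0354, 95% interval -6.87% to 3.79%), and in FPKM, which carries no TMM scaling, crushed nerve 1 with 103.6 lay above the intact nerves with 103.1 to 103.3. Hk1 also had the least spread of the 10 genes, with a coefficient of variation of 0.422% among intact and 0.759% among crushed nerves, less than the 1.18% that counting alone would give at its mean count. Hk2, the inducible hexokinase of muscle and of proliferating cells, lies at chr4:113559427-113610243 and had 401, 394 and 409 CPM in the intact nerves, against 412, 419.5 and 423 CPM in the crushed ones. All crushed nerves were higher, by 4.22% on average (log2 fold change 0.060, SE 0.0362, 95% interval -1.39% to 10.15%, edgeR quasi-likelihood adjusted p = 0.459).

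The 2 most abundant genes had narrow intervals around 0. Pgk1, whose enzyme makes the first ATP of the payoff phase, lies at chrX:77263359-77279367 and had 1295, 1429 and 1359 normalized CPM in the intact nerves, against 1420.2, 1464 and 1406 in the crushed ones. Only intact nerve 2 reached into the range of the crushed nerves, and the log2 fold change was 0.071 (SE 0.0420, 95% interval -1.48% to 12.045%). A further row of the table annotated as a phosphoglycerate kinase, AABR07008097.1, which was looked up after the values were seen, held between 91 and 122 counts per nerve, or 0.299% of the counts of Pgk1, so that few reads were assigned to that similar copy. Ldha, which encodes the M subunit of lactate dehydrogenase, lies at chr1:102900286-102909707 and had 1347, 1376 and 1359.6 CPM in the intact nerves, against 1415, 1407 and 1351 in the crushed ones. Crushed nerve 3 fell among the intact nerves, and the log2 fold change was 0.031 (SE 0.0348, 95% interval -3.12% to 7.78%). Pdk1, whose kinase inhibits pyruvate dehydrogenase and thereby keeps pyruvate in the cytosol, lies at chr3:58530870-58558027. It had 82.3, 81.6 and 78.5 CPM in the intact nerves, against 81.0, 81.5 and 87.3 in the crushed ones, and only crushed nerve 3 stood above the intact range. Its log2 fold change was 0.043 (SE 0.0482, 95% interval -4.28% to 11.0%).

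Each of these enzymes is 1 of several paralogues, and the balance between paralogues was compared in FPKM. Lactate dehydrogenase was almost purely of the A type. Ldhb, the H subunit typical of oxidative tissue, had between 3 and 16 counts per nerve, and Ldha carried at least 99.9% of the summed FPKM of both genes in each nerve (99.97 ± 0.0212% intact, 99.97 ± 0.0191% crushed, SD, n = 3 each). Hexokinase was shared between Hk1 and Hk2, with Hk3 at no more than 2 counts in any nerve, below the floor. Hk2 carried 41.4, 41.2 and 42.1% of the summed FPKM of Hk1 and Hk2 in the intact nerves, against 42.4, 43.2 and 43.3% in the crushed ones, which was higher in every crushed nerve, by 1.43 percentage points (two-sided exact permutation p = 0.1, adjusted p = 0.25 over the 5 shares compared). With 3 nerves against 3, the smallest p this test can give is 0.1, so it could not call any share at 0.05. Of phosphofructokinase 1, the liver-type gene Pfkl was the most abundant with 105 FPKM, followed by Pfkp with 42.4 and the muscle-type gene Pfkm with 15.3. The share of Pfkp was 26.7, 27.8 and 27.8% in the intact nerves, against 24.6, 25.2 and 24.5% in the crushed ones, lower in every crushed nerve (two-sided exact permutation p = 0.1, adjusted p = 0.25). Pfkl itself had a log2 fold change of 0.053 (SE 0.0364, edgeR quasi-likelihood adjusted p = 0.517).

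Of the 2 lactate carriers, Slc16a1 made up 62.0 ± 1.45% of their summed FPKM in intact and 63.3 ± 0.112% in crushed nerves (SD, n = 3 each), and the groups overlapped (two-sided exact permutation p = 0.4, adjusted p = 0.667). Slc16a7, which encodes the high-affinity carrier MCT2, had 4.09 FPKM, and Slc16a8 had 0 counts. Bsg, which encodes basigin, the chaperone that brings MCT1 and MCT4 to the membrane, had 269 FPKM, whereas Emb, which encodes the chaperone embigin, had 3.45 (Hk3, Slc16a7, Slc16a8, Bsg and Emb were named after their values were seen). Bsg had 464 ± 34.2 CPM in intact and 432 ± 18.5 CPM in crushed nerves (SD, n = 3 each), with overlapping groups and a log2 fold change of -0.10 (SE 0.0552), opposite in sign to those of both carriers. Among the pyruvate dehydrogenase kinases, Pdk1 carried 58.1 ± 0.683% of the FPKM of the 4 genes in intact nerves and 66.0, 57.7 and 57.7% in the crushed ones (two-sided exact permutation p = 0.8). The high share of crushed nerve 1 came with a low level of Pdk3 in that nerve, 1985 counts against 2843 and 2807 in crushed nerves 2 and 3, and without crushed nerve 1 the difference in the share of Pdk1 turned from 2.43 to -0.332 percentage points. Pdk2 and Pdk4 were low, with 4.16 and 0.336 FPKM. The 4 PFKFB genes were all low, with Pfkfb1 at 2.28, Pfkfb2 at 2.26 and Pfkfb3 at 1.73 FPKM and the higher of the 2 rows named Pfkfb4 at 0.765 FPKM. The FPKM ranges of Pfkfb1, Pfkfb2 and Pfkfb3 overlapped (the PFKFB genes besides Pfkfb3 were named after their values were seen).

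**Figure D4:**
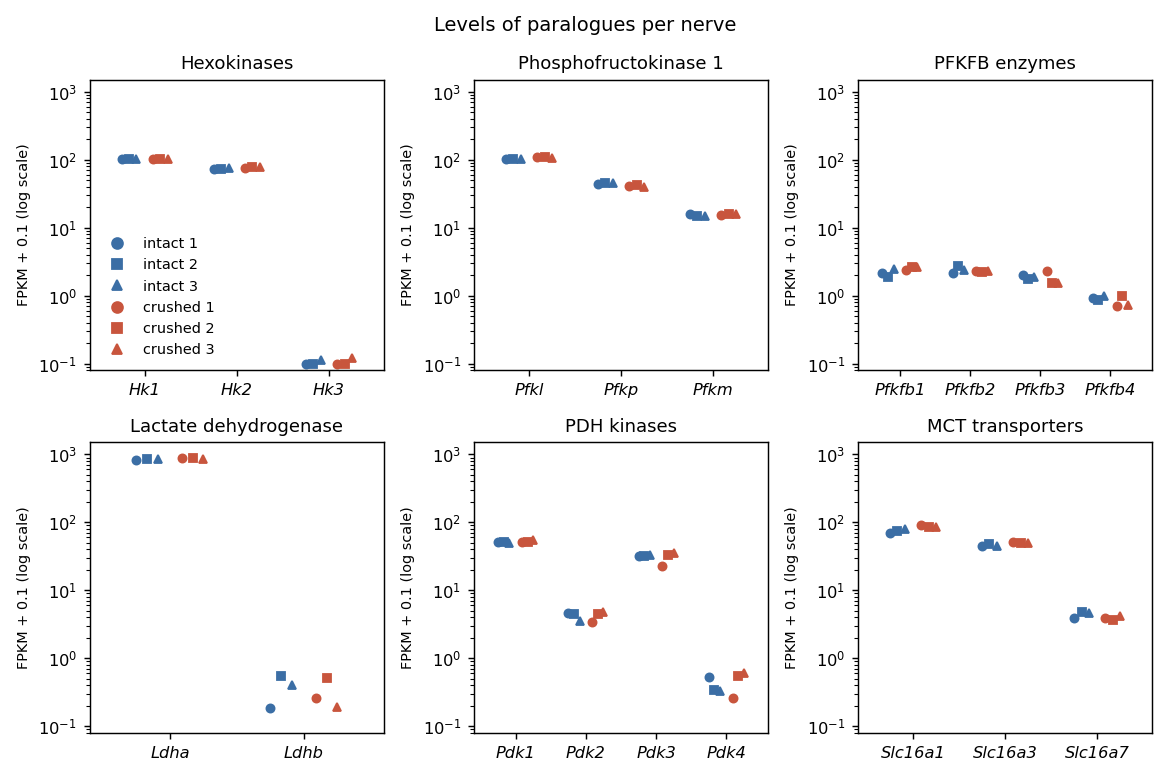
FPKM plus 0.1 is plotted on a log axis for the paralogues of 6 enzyme and transporter families in each nerve, with blue symbols for intact and red symbols for crushed nerves and the symbol shape giving the nerve number. Ldha lies far above Ldhb in every nerve, Hk1 and Hk2 are close together with Hk3 at the floor, and the low Pdk3 value of crushed nerve 1 is visible.

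The other genes of the pathway were followed in a list of 54 glycolysis, lactate and pyruvate genes, of which 41 rows of the table passed the expression filter. Of these 41, 0 had an adjusted p under 0.05 with edgeR's quasi-likelihood test, 2 were higher and 3 lower at an unadjusted p under 0.05 (6.71% and 9.50% of all genes tested), and DESeq2, limma and edgeR's exact test also called 0. Their median log2 fold change was -0.0028, with 20 positive and 21 negative, and the groups did not overlap in 8 of the 41, against 23.0% of all genes tested. The 5 genes with an unadjusted p under 0.05 are named after their values were seen. Among minor glucose transporters, Slc2a6 and Slc2a8 gave log2 fold changes of 0.63 (adjusted p = 0.297) and 0.27 (adjusted p = 0.256), and Slc2a12, another minor glucose transporter, one of -0.46 (adjusted p = 0.120, all from edgeR's quasi-likelihood test). These 3 had no more than 183 counts in any nerve and between 0.672 and 2.85 FPKM, far under the 122 FPKM of Slc2a1. Tpi1, which encodes triosephosphate isomerase, had a log2 fold change of -0.13 (edgeR quasi-likelihood adjusted p = 0.175), with 183 ± 6.83 CPM in intact and 168 ± 4.91 CPM in crushed nerves (SD, n = 3 each). Pc, which encodes the pyruvate carboxylase that replenishes oxaloacetate, had a log2 fold change of -0.14 (edgeR quasi-likelihood adjusted p = 0.126).

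Enzymes on either side of Pgk1 in the pathway did not share a sign. Gapdh, the step before Pgk1, had a log2 fold change of 0.11 and Eno1, the enolase of most tissues, one of 0.068, while Aldoa, Pgam1 and Tpi1 were negative with -0.094, -0.030 and -0.13 (values named after they were seen). The list of these lower steps, Pgk1 aside, held 5 positive and 6 negative values. The highest levels of the pathway, again named after they were seen, were those of Eno1 with 984 FPKM, the first of 2 rows named Pkm with 940.4 FPKM, Ldha with 860, Pgk1 with 765, Aldoa with 688 and Gapdh with 687 FPKM. This first Pkm row lies at chr20:18058245-18060661, and the second, at chr8:64481172-64502722, had 445 FPKM. Reads of Pkm could be split between its 2 rows, so the place of Pkm in this order is uncertain. The 2 rows had log2 fold changes of -0.034 and 0.042. In the list of pyruvate entry and pyruvate dehydrogenase genes, 13 rows were tested, and their log2 fold changes lay between -0.14 and 0.30 with 6 positive.

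**Figure D5:**
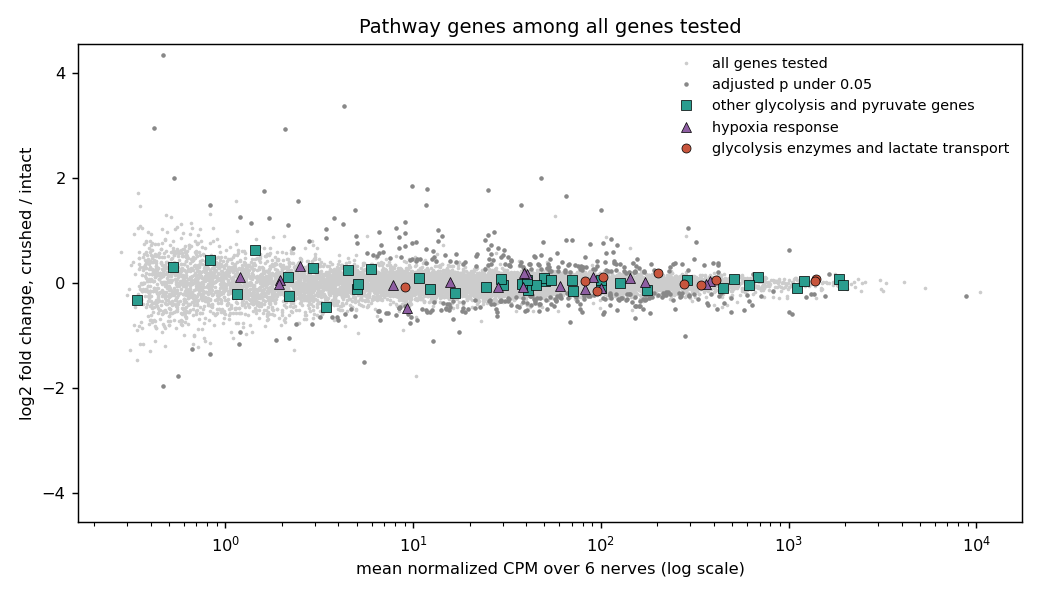
The log2 fold change of crushed against intact nerves (vertical axis) is plotted against the mean normalized CPM over the 6 nerves (horizontal log axis) for all 12393 genes tested in grey, with genes at an adjusted p under 0.05 in darker grey. The 10 glycolysis and lactate transport genes (red circles) and 41 other pathway rows (green squares) lie within the cloud of all genes, and of the 19 hypoxia response genes (purple triangles) Adm passed the adjusted threshold.

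Genes that respond to low oxygen were examined because HIF-1 is known to drive many of the 10 genes. Of 21 hypoxia response genes, 19 were tested, and 1 of them passed an adjusted p under 0.05, in the downward direction, against 1.65% of all genes tested. This gene was Adm, which encodes the vasodilator peptide adrenomedullin. It had 293, 262 and 273 counts in the intact nerves, against 208, 240 and 172 counts in the crushed ones, or 10.8 ± 0.839 and 7.77 ± 0.997 normalized CPM (SD, n = 3 each), and fell by 0.48 on the log2 scale (SE 0.113, edgeR quasi-likelihood adjusted p = 0.04998, just under the threshold). The call of Adm was lost in 9 of 12 alternatives, among them the fits without any 1 of 5 nerves, with an adjusted p between 0.00439 and 0.178 over all 12. At an unadjusted p under 0.05, 2 of the 19 genes, Vhl and Ndrg1, were higher in crushed nerves, against 6.71% of all genes tested. Their log2 fold changes were 0.16 (adjusted p = 0.183) and 0.20 (adjusted p = 0.121, edgeR's quasi-likelihood test), and both were named after their values were seen. Hif1a itself had 375 ± 5.05 and 384 ± 6.96 CPM (SD, n = 3 each) and a log2 fold change of 0.035 (SE 0.0363). The median of the list was 0.021, and the values had no common sign, with 10 positive and 9 negative. Car9 and P4ha1, both known HIF targets, had log2 fold changes of -0.11 and -0.012 (Hif1a, Car9 and P4ha1 were likewise named after their values were seen).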

How the data were processed

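RNA-seq was analysed from 3 crushed and 3 intact sciatic nerves. The authors deposited a table of counts per Ensembl gene, not normalized, and FPKM values that they computed from these counts. Per the submitters' processing notes, HISAT2, StringTie (version 1.3.0) and the build Rnor_6.0 were used. The counting rule, strand setting and annotation release are not given in the sources used here, so reads shared with similar or overlapping genes could be split. The labels name a column kit for RNA extraction, whereas the methods name TRIzol and digestion with RNase R, which degrades linear RNA. The 12 value columns were matched to nerves by title.

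Counts were scaled with TMM, filtered with edgeR's filterByExpr and compared with edgeR's quasi-likelihood test without a replicate block (edgeR 4.0.16, limma 3.58.1, DESeq2 1.42.0, R 4.3.3), over all 12393 genes that passed, with Benjamini-Hochberg adjustment. All 10 members passed the filter. Standard errors came from the test statistic, and 95% intervals from its degrees of freedom. Paralogue shares of FPKM were compared with exact permutation tests. The calculation was tested on simulated counts. Within groups, nerves differed by more than counting noise (chi-square over its degrees of freedom 3.27 to 11.8). Without molecular identifiers, the floor of 3 counts allows for counting error alone.

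The members and gene lists were chosen with earlier results of these data known. Besides the members, the rule named genes at an adjusted p under 0.05 in the pathway and hypoxia lists, markers apart, and the paralogues in the shares. Other genes were named after their values were seen, as the text says. The alternatives were RLE scaling, DESeq2, no expression filter, limma on log2(FPKM + 0.1), the replicate block, edgeR's exact test, each nerve left out, and counts for the shares. RefSeq promoters (GRCr8) were matched by symbol, and coordinates of the 2 builds were not combined. Protein sequences were not used here.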

Additional observations from a re-analysis of the deposited data

How the results depend on the processing

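The number of the 10 genes called at an adjusted p under 0.05 was 0 with edgeR's quasi-likelihood test, with RLE scaling, without the filter and with limma, and 1 (Slc16a1) with DESeq2 and 1 with edgeR's exact test; with single nerves left out it was from 0 to 1. No setting placed any of the 10 past the study's limits, and no setting called any other pathway gene. The 1 hypoxia response gene called, Adm, was lost with RLE scaling (0 genes), without the filter (0), with limma (0) and with the replicate block (0), and the fits without one nerve called from 0 to 1. Its adjusted p, 0.04998, lies next to the threshold, and the cause of the change was not tested. Ndrg1 was called instead without intact nerve 1. Of 120 values of the 10 genes over 12 settings, 114 kept their sign and their side of the threshold, 3 passed the threshold (Slc16a1) and 3 turned sign: Slc2a1 without intact nerve 1 (0.032, range with single nerves left out -0.10 to 0.032), and Pfkfb3 without crushed nerve 2 (0.039) or 3 (0.030, range -0.31 to 0.039). Among the paralogues, Ldhb ranged from -1.12 to 0.21 across the fits without one nerve (0.21 without intact nerve 2 and 0.026 without crushed nerve 3), Pdk2 from -0.14 to 0.12 (0.065, 0.042 and 0.12 without intact nerve 1, intact nerve 2 or crushed nerve 1, and 0.0033 with limma), and Pdk3 from -0.22 to 0.072 (without crushed nerve 1). The shares of Ldha (-0.00236 percentage points without intact nerve 2, range to 0.0187) and Pdk1 (-0.332 without crushed nerve 1, range to 3.81) turned sign as well, and the other 3 shares kept their direction.

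With the replicate block, 0 of the 10 genes were called. The deviations of nerves with the same number had correlations of -0.0148, 0.00586 and 0.0756 across genes, and 1 of the 3 intact nerves correlated best with its own number, so the numbers were not taken as pairs.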
